A study of Mus musculus and Homo sapiens with 41 samples.

Results

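The 35 genes described here are read out mostly in monocytes, macrophages and dendritic cells. They comprise 7 growth factor, chemokine and other surface receptors, 4 Fc receptor genes and adaptors, 5 pattern recognition genes, 7 lysosome and phagosome genes, 7 genes of matrix, cytoskeleton and other roles, and 5 genes of major histocompatibility complex (MHC) class II antigen presentation. They were picked by name from 53756 genes of the Granulocyte-Monocyte Progenitor (GMP) table, and the list was proposed with the difference between the GMP genotypes already known. That difference therefore chose the members, and their values in it are a description that supports nothing further. All 35 are in the GMP table and all 35 passed its filter on low values, while 28 of them are among the 13238 genes of the 416b table. Ly86, Ly6c2, Ms4a6c, Ctss, Tlr2, Emb and Fn1 are not listed in the 416b table, which holds a value above 0 in both libraries for each gene it lists.

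GMPs were sorted from bone marrow as Lineage-, Cd45+, c-Kit+, Sca-1-, Cd34+ and FcγR+ cells, after mature cells that carry Gr-1, Cd11b, 7-4, Ter-119, Cd5 or B220 had been removed. The mice were lethally irradiated C57BL/6 Cd45-1 animals reconstituted with total bone marrow either from C57BL/6 Cd45-2 mice homozygous for the luxoid mutation of Zbtb16 (Zbtb16lu/lu) or from wild type (WT) mice, so both genotypes passed through the same transplantation. GMPs were purified some months after it, and the age of the donors and recipients of these libraries is not given in the sources used here. Zbtb16 encodes PLZF, a zinc finger repressor of transcription. The 416b line, an established Cd34+ murine myeloid cell line, was transduced with lentivirus carrying PLZF-Flag or with an Empty vector and sorted on green fluorescent protein, which gave 1 RNA-seq library for each condition. Each GMP genotype has 2 libraries, from separate RNA extractions, and the p-values measure the spread between these libraries. WT library 1 and Zbtb16lu/lu library 1 carry the same date in their names, and the other WT and Zbtb16lu/lu libraries carry a different date each.

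Monocytes arise from GMPs through progenitors that depend on the colony stimulating factor 1 receptor Csf1r, leave the bone marrow through the chemokine receptor Ccr2, and take up and degrade material in lysosomes. Antigen presenting cells load peptides from that material on MHC class II molecules, pairs of an alpha and a beta chain that travel with the invariant chain Cd74. The coactivator Ciita switches these genes on together through factors bound to a conserved promoter module, of which the Y box, an inverted CCAAT sequence, and the X2 box, which resembles a cAMP response element, are parts. PU.1, C/EBP factors and Irf8 are the best known regulators of the monocyte genes.

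RefSeq promoter sequences of the GRCm38.p6 build, from 250 bases before to 50 bases after each start, matched 25 of the 35 members with 30 promoters. H2-Ab1, Fn1, Lst1, Tyrobp, Cd74, Cd14, Csf1r, Sirpa, Ciita and Tlr4 had no match. The 4 promoter stretches printed here, each the 150 bases before the start, show parts of the class II module in H2-Aa and H2-Eb1, which varied widely between libraries of 1 genotype, and the myeloid motifs in Ly6c2 and Clec7a. Capitals mark the motif named.
H2-Aa, chr17:34287824-34287973, minus strand, with the cAMP response element TGACGTCA and the Y box CTGATTGG in capitals: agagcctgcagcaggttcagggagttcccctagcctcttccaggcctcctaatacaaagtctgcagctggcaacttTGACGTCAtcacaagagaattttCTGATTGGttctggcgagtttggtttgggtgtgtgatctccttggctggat
H2-Eb1, chr17:34305717-34305866, plus strand, with the Y box CTGATTGG in capitals: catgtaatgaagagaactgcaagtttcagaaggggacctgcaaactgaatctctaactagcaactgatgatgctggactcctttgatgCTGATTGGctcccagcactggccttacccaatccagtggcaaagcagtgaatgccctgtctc
Ly6c2, chr15:75111972-75112121, minus strand, with the PU.1 motif GAGGAAGT in capitals: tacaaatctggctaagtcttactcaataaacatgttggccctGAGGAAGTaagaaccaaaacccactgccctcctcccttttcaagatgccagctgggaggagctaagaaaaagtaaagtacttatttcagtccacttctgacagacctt
Clec7a, chr6:129472780-129472929, minus strand, with the PU.1 and IRF composite element, read on the other strand, in capitals: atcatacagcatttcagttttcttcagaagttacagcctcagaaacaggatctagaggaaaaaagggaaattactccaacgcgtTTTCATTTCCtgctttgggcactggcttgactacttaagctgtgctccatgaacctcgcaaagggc

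The Y box began 51 bases before the start of H2-Aa and 62 bases before that of H2-Eb1, and only these 2 of the 25 matched members held it, beside 4.10% of all 32851 promoters. The element TGACGTCA, which overlaps the shorter TGACG, began 74 bases before the start of H2-Aa, the only member with it, beside 1.79% of all promoters. The PU.1 motif GAGGAAGT, which contains the ETS core GAGGAA, was in 5 of the 30 member promoters (16.7%), those of Ctss, F13a1, Ly6c2 and Pld4, beside 3.20% of all. With the window ended at the start it was in 2 (6.7%), both of them promoters of Ly6c2, beside 2.44%. GAGGAA alone was in 14 member promoters (46.7%) beside 28.28% of all, and the PU.1 and IRF composite element in 3 (10.0%), those of Cd68 and Clec7a, beside 2.72%. The interferon-stimulated response element (ISRE) was in 3 (10.0%), those of Aif1, Ctss and Tgfbi, beside 3.44%. The C/EBP motif TTGCNNAA was in 4 (13.3%) beside 10.80%, the short ATTGG in 10 (33.3%) beside 37.41%, and TGACG in 4 (13.3%) beside 20.81%. All motifs were searched on both strands, several promoters of 1 gene share bases, and the matches describe letters in these windows.

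Values are normalized counts, that is, reads per gene divided by a library's size factor, and sum to between 38562940 and 40130730 in the GMP libraries. Zbtb16 was at 705 and 828 normalized counts in WT library 1 and 2 and at 369 and 269 in Zbtb16lu/lu library 1 and 2, below both WT values. GMP markers were high in all 4 libraries, with Mpo between 477326 and 552003. In contrast, of the defining markers of other cells, Blk (B cells) and Marco (macrophages) were at 0 in every library, and 8 of 13 B cell, 8 of 11 T and NK cell, 4 of 8 plasmacytoid dendritic, 4 of 9 conventional dendritic and 3 of 12 tissue macrophage markers stayed under 10 in every library. Other genes of these lists were well above that: Ighm was between 4457 and 6246, Cd79b between 1055 and 1270, Nkg7 between 11056 and 11712, Lair1 between 2402 and 3700, Tcf4 between 1543 and 2146 and Vcam1 between 1539 and 3381. However, 0 of 11 erythroid, 0 of 6 megakaryocyte and 0 of 7 eosinophil, basophil and mast cell markers stayed under 10 in every library. Their summed levels ran from 9094 to 13113, from 1565 to 4598 and from 11975 to 21776 over the 4 libraries. The mean log2 difference between Zbtb16lu/lu and WT was above 0 for all 8 tested tissue macrophage markers, with a median of 0.57 and both Zbtb16lu/lu libraries above both WT libraries for 5, beside 21.7% of all genes, of which 10090 of 20531 had a difference above 0, and their part in the members' values was not tested. Of 19 mature neutrophil markers 2 stayed under 10, and their summed level was 16650 and 7835 in WT library 1 and 2 and 12589 and 24056 in Zbtb16lu/lu library 1 and 2. In all-gene testing with limma on log2(normalized counts + 1), 0 of 20531 genes (0%) passed an adjusted p of 0.08, the smallest being 0.299, and 2028 had an unadjusted p under 0.05. No member passed, and 19 had an unadjusted p under 0.05, all with higher values in Zbtb16lu/lu, beside 5.50% of all genes with such a p in that direction.

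The members sat higher in Zbtb16lu/lu than in WT GMPs. The mean log2 difference was above 0 for 33 of the 35, with a median of 0.42 beside -0.01 over all genes tested and a range from -0.65 (Fcgr1) to 1.36 (Fn1). Both Zbtb16lu/lu libraries were above both WT libraries for 25 members (71.4%), beside 21.7% of all genes, and below both for 0, beside 22.1%; since this difference chose the members, nothing is read from these shares. The other 10, whose genotypes overlapped, were Ms4a6c, Fcgr3, Fcgr1, Tlr2, Tlr4, Emb, Cd74, H2-Aa, H2-Eb1 and Ciita. Differences within a genotype were not small: WT library 1 was the lowest of the 4 for 25 members (71.4%), beside 25.7% of all genes. In 22 members the order was WT library 1, then WT library 2, then both Zbtb16lu/lu libraries. The share of all genes in that order was not taken, so nothing is read from this count. WT library 2 was also above WT library 1 for 10 of 11 erythroid and 5 of 6 megakaryocyte markers, beside 10068 of 20531 genes. The part of such cells in the members' values was not tested. The members' median difference was 0.45 in the libraries that share a date, where 28 of 35 members were higher in Zbtb16lu/lu, and 0.32 in the other pair, where 35 of 35 were. In sorted cells measured in bulk, a larger share of cells further along the monocyte path and more RNA per cell cannot be told apart.

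**Figure D1:**
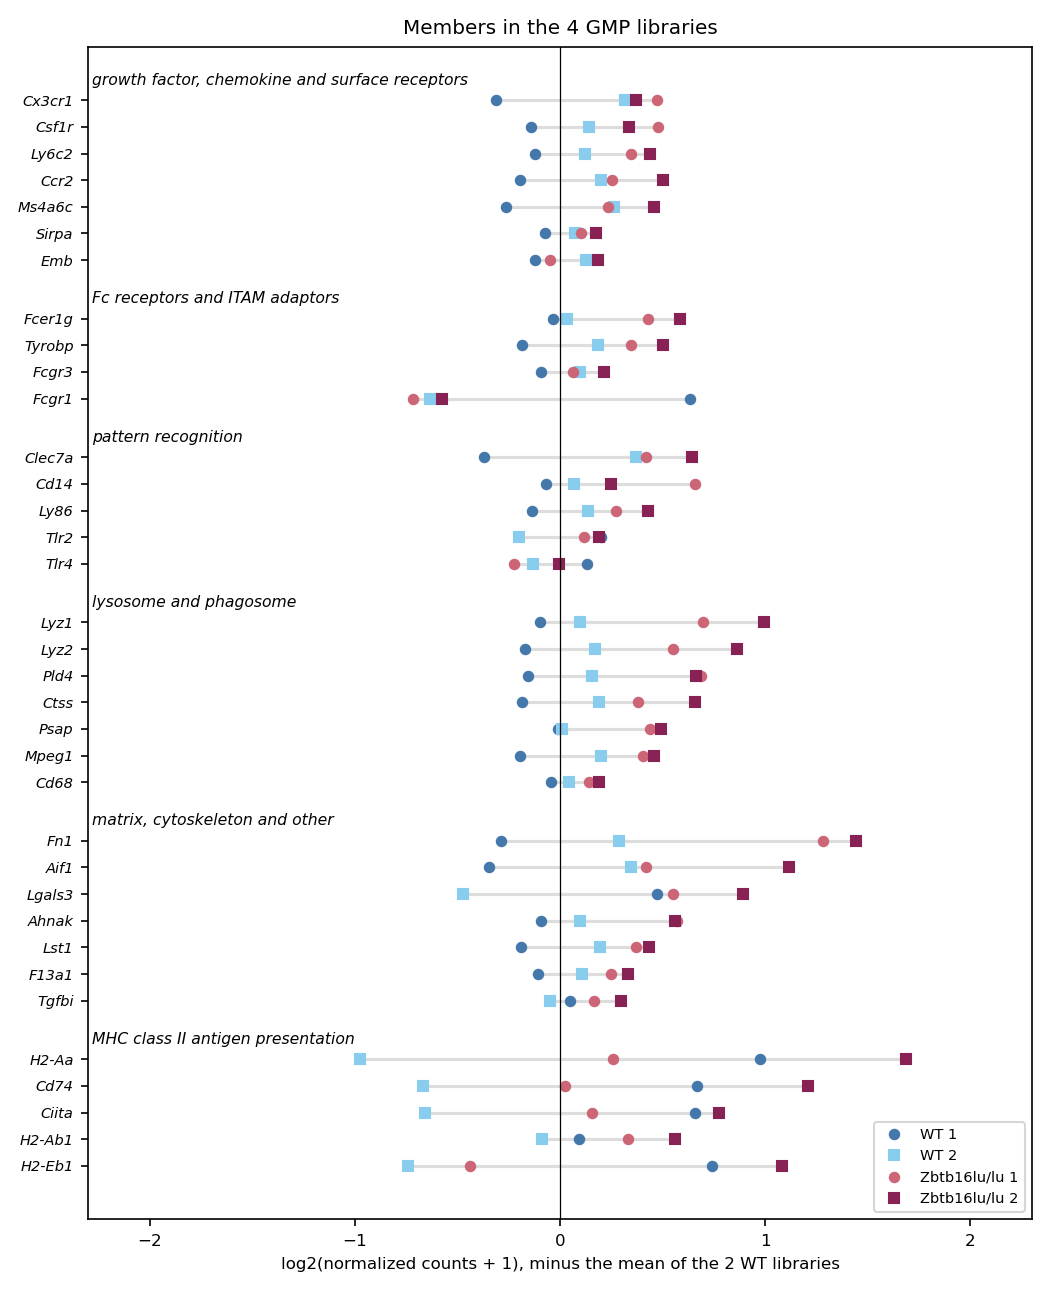
Each row is 1 of the 35 members, grouped by role, and each point is 1 of the 4 GMP libraries, placed by log2(normalized counts + 1) minus the mean of the 2 WT libraries; the grey line joins the lowest and the highest library. In most rows both Zbtb16lu/lu points lie to the right, while in Cd74, H2-Aa, H2-Eb1 and Ciita WT library 1 lies above Zbtb16lu/lu library 1.

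Among the receptors, Csf1r, the receptor that drives monocyte and macrophage growth, stood at 4780 and 5819 normalized counts in WT library 1 and 2 and at 7351 and 6658 in Zbtb16lu/lu library 1 and 2. The genotypes did not overlap, and the log2 difference was 0.41 ± 0.13 (SE from limma, n = 2 libraries per genotype; adjusted p = 0.428). Ccr2, through which monocytes leave the marrow, stood at 5083 and 6681 in WT against 6949 and 8263 in Zbtb16lu/lu, a difference of 0.38 ± 0.16, with the 2 nearest libraries of the genotypes only slightly apart. Cx3cr1, the fractalkine receptor of patrolling monocytes, was at 700 and 1082 in WT against 1207 and 1124 in Zbtb16lu/lu. Its 2 WT values lay further apart than WT library 2 lay from either Zbtb16lu/lu value. Emb, a partner protein of lactate transporters, had the smallest difference of all members, 0.07 ± 0.14, with 20536 and 24386 in WT against 21618 and 25390 in Zbtb16lu/lu, and the genotypes overlapped. Ly6c2, whose product marks classical monocytes, had the highest level of all members per kilobase of exon, and was at 31606 and 37387 normalized counts in WT against 43735 and 46582 in Zbtb16lu/lu. The Gr-1 antibody used to remove mature cells binds Ly6c as well as Ly6g proteins, so the sort acts on cells with this protein. The remaining receptors, Sirpa and Ms4a6c, had differences of 0.14 and 0.34, and the genotypes overlapped in Ms4a6c. Several of these values rested on WT library 1: without it the differences were 0.27 for Csf1r, 0.18 for Ccr2, 0.11 for Cx3cr1, 0.08 for Ms4a6c, 0.06 for Sirpa and -0.06 for Emb. Without WT library 2, by contrast, they were 0.55, 0.58, 0.73, 0.61, 0.21 and 0.19, and Emb was at -0.05 without Zbtb16lu/lu library 2.

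The signalling adaptors Fcer1g and Tyrobp separated the genotypes, and the Fc receptors Fcgr1 and Fcgr3 did not. Fcer1g, the common gamma chain that carries an activation motif, was at 1625 and 1702 normalized counts in WT library 1 and 2 and at 2239 and 2490 in Zbtb16lu/lu library 1 and 2. Its 2 WT libraries were close together, both Zbtb16lu/lu libraries were well above them, and the log2 difference was 0.51 ± 0.12 (adjusted p = 0.370). Tyrobp (DAP12), an adaptor of related design, was at 4715 and 6082 in WT against 6801 and 7587 in Zbtb16lu/lu, a difference of 0.42 ± 0.14. Fcgr3, a receptor within the FcγR gate used to sort the cells, was at 9761 and 11136 in WT against 10898 and 12074 in Zbtb16lu/lu, and its difference of 0.14 ± 0.12 was the third smallest, with overlapping genotypes. Fcgr1, the high-affinity IgG receptor, was scarce, at 40.8 and 16.4 in WT against 15.4 and 17.1 in Zbtb16lu/lu. Its negative difference of -0.65 ± 0.59 rested on WT library 1, without which it was -0.01. Without the same library the differences of Tyrobp and Fcgr3 were 0.24 and 0.04, and without Zbtb16lu/lu library 2 that of Fcgr3 was 0.06.

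Pattern recognition genes were split. Clec7a (dectin-1), the receptor for fungal beta-glucan, was at 858 and 1432 normalized counts in WT library 1 and 2 and at 1482 and 1729 in Zbtb16lu/lu library 1 and 2, and Cd14, the coreceptor for bacterial lipopolysaccharide, was at 371 and 407 in WT against 613 and 462 in Zbtb16lu/lu. Neither gene overlapped between genotypes, with log2 differences of 0.53 ± 0.22 and 0.45 ± 0.19. That of Clec7a was 0.16 without WT library 1 and 0.90 without WT library 2, and that of Cd14 was 0.25 without Zbtb16lu/lu library 1. In the 2 Toll-like receptors among the members the genotypes overlapped. Tlr4, the signalling receptor for lipopolysaccharide, was at 1207 and 1004 in WT against 942 and 1097 in Zbtb16lu/lu, a difference of -0.12 ± 0.16, and Tlr2, the receptor for bacterial lipopeptides, was at 908 and 689 in WT against 858 and 901 in Zbtb16lu/lu, a difference of 0.15 ± 0.17. The sign of both depended on the libraries used, since Tlr2 was at -0.08 in the pair of 1 date, and Tlr4 at 0.13 in the other pair. Ly86 (MD-1), the partner of the Toll-like protein RP105, had a difference of 0.35 ± 0.14, which was 0.21 without WT library 1.

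All 7 lysosome and phagosome genes had both Zbtb16lu/lu libraries above both WT libraries, beside 21.7% of all genes, with a median log2 difference of 0.52. Lyz2, the lysozyme of macrophages, was at 4398 and 5574 normalized counts in WT library 1 and 2 and at 7260 and 8992 in Zbtb16lu/lu library 1 and 2, a difference of 0.71 ± 0.15 (1.63-fold; adjusted p = 0.315). Its near-identical neighbour Lyz1 was at 172 and 197 in WT against 299 and 368 in Zbtb16lu/lu, a difference of 0.85 ± 0.21 (1.80-fold). Lyz1 made up between 3.41% and 3.96% of the reads of both genes in all 4 libraries, and since their sequences are so alike, how reads were shared between them is uncertain. Pld4, an endolysosomal exonuclease, was at 1152 and 1428 in WT against 2063 and 2028 in Zbtb16lu/lu, a difference of 0.67 ± 0.14 with the 2 Zbtb16lu/lu libraries nearly equal. Ctss (cathepsin S), which trims the invariant chain in antigen presenting cells, was at 737 and 956 in WT against 1094 and 1325 in Zbtb16lu/lu, a difference of 0.52 ± 0.17. Psap, the precursor of the saposins that help degrade sphingolipids, had closely placed replicates, with 15782 and 16003 in WT against 21501 and 22313 in Zbtb16lu/lu, a difference of 0.46 ± 0.11. Mpeg1 (perforin-2) and the lysosomal membrane protein Cd68 had differences of 0.43 and 0.16. Without WT library 1 the differences of Ctss and Mpeg1 were 0.33 and 0.23.

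The matrix and cytoskeleton group held the largest difference of the list. Fn1 (fibronectin), a matrix glycoprotein made by macrophages among many cells, was at 81.5 and 122 normalized counts in WT library 1 and 2 and at 244 and 273 in Zbtb16lu/lu library 1 and 2, a log2 difference of 1.36 ± 0.27 (2.56-fold; adjusted p = 0.299). Spread over 11685 bases of exon this amounted to 8.73 normalized counts per kilobase in WT and 22.1 in Zbtb16lu/lu, among the lowest levels of the members. Aif1 (Iba1), an actin-bundling protein of macrophages, was at 40.8 and 66.5 in WT against 69.9 and 114 in Zbtb16lu/lu. WT library 2 and Zbtb16lu/lu library 1 nearly met. Ahnak, a very large scaffold protein, was at 1841 and 2102 in WT against 2924 and 2901 in Zbtb16lu/lu, a difference of 0.57 ± 0.12. Lst1, a myeloid membrane protein encoded in the MHC region, was at 355 and 464 in WT against 525 and 548 in Zbtb16lu/lu, a difference of 0.40 ± 0.19. Lgals3 (galectin-3) was at 286 and 148 in WT against 302 and 382 in Zbtb16lu/lu, and only it and Tgfbi, among the 7 genes of this group, were higher in WT library 1 than in WT library 2. Its difference was 0.08 in the pair of 1 date and 1.37 in the other pair, and without WT library 2 it was 0.25. The transglutaminase subunit F13a1 and the matrix protein Tgfbi had differences of 0.29 and 0.23, with non-overlapping genotypes. Without WT library 1 the differences were 0.42 for Aif1, 0.21 for Lst1 and 0.18 for F13a1, and without Zbtb16lu/lu library 2 that of Aif1 was 0.42.

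In the antigen presentation genes other than H2-Ab1, the libraries of each genotype differed by more than the genotypes did, as they also did in Fcgr3, Tlr4 and Emb. In 15 of the 35 members this held within at least 1 genotype. The share of all genes for which this held was not taken, so nothing is read from these counts. H2-Aa, the alpha chain of I-A, was at 208 and 53 normalized counts in WT library 1 and 2 and at 126 and 341 in Zbtb16lu/lu library 1 and 2. WT library 1 was 3.92-fold above WT library 2, and Zbtb16lu/lu library 2 was 2.70-fold above library 1. Cd74 was at 266 and 105 in WT against 170 and 388 in Zbtb16lu/lu, and H2-Eb1, the beta chain of I-E, at 134 and 47.3 in WT against 58.6 and 170 in Zbtb16lu/lu, in the same order of libraries. Ciita, the class II coactivator, was low, at 39.8 and 15.4 in WT against 27.8 and 43.2 in Zbtb16lu/lu. All 5 genes were higher in WT library 1 than in WT library 2 and higher in Zbtb16lu/lu library 2 than in library 1. H2-Ab1, the beta chain that pairs with H2-Aa, had this order only weakly, with 611 and 539 in WT against 723 and 847 in Zbtb16lu/lu, and was the only one of the 5 whose genotypes did not overlap, with a log2 difference of 0.45 ± 0.16 (adjusted p = 0.466) that was 0.26 with GC and length offsets. Consequently the sign of the class II median depended on the libraries: it was 0.46 over all 4, -0.65 in the pair of 1 date with 1 of 5 genes higher in Zbtb16lu/lu, and 1.82 in the other pair with 5 of 5 higher. Without WT library 2 the median was -0.05.

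In all, 10 of the 35 members (28.6%), beside 27.4% of all genes, were higher in WT library 1 and Zbtb16lu/lu library 2: the 5 class II genes, Lgals3, Fcgr1, Tlr2, Tlr4 and Tgfbi. The same order held for 12 of 17 tested mature neutrophil markers, among them S100a8, at 8098 and 3967 in WT library 1 and 2 and 5199 and 9219 in Zbtb16lu/lu library 1 and 2, and the specific granule gene Camp, at 361 and 68.5 in WT against 478 and 1435 in Zbtb16lu/lu. These markers were also higher in Zbtb16lu/lu for 17 of 17, beside 10090 of 20531 genes. Both Zbtb16lu/lu libraries were above both WT libraries for 11 of 17 (64.7%), beside 21.7% of all genes. Their median log2 difference was 1.24, beside 0.42 for the members. That median was 0.58 in the pair of 1 date, with 12 of 17 higher, and 2.29 in the other pair. The same library order held for 6 of 7 eosinophil, basophil and mast cell markers, with Prg2 2.02-fold higher in WT library 1 than in WT library 2 and 1.49-fold higher in Zbtb16lu/lu library 2 than in library 1, and for 1 of 5 tested B cell, 1 of 4 plasmacytoid dendritic and 1 of 5 conventional dendritic markers. The part of the cells with these markers in the class II order, or in the members' values, was not tested.

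**Figure D2:**
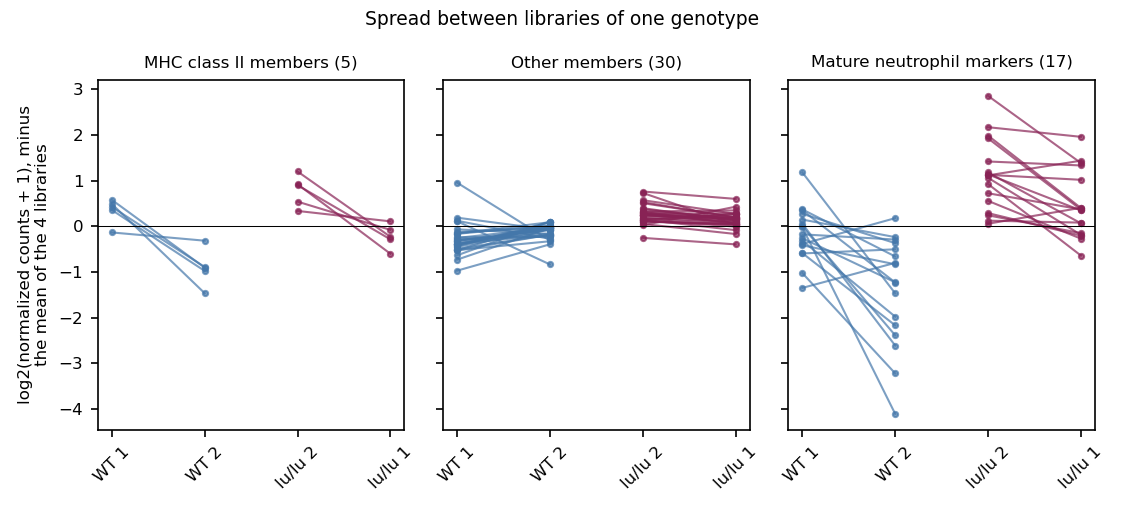
Lines join the 2 libraries of each genotype (WT in blue, Zbtb16lu/lu in purple) for the 5 class II members, the other 30 members and 17 mature neutrophil markers, as log2(normalized counts + 1) minus the mean of the 4 libraries. The class II lines fall from WT library 1 to 2 and from Zbtb16lu/lu library 2 to 1, as do the lines of 12 neutrophil markers, and most other members lie flat or slightly upward from WT library 1 to 2.

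The wider pathways were read from lists of genes that are not members, and none of their genes passed the test. Of 94 tested genes among 100 other monocyte, macrophage and dendritic genes, 36 had both Zbtb16lu/lu libraries above both WT libraries (38.3%, beside 21.7% of all genes) and 8 had both below (8.51%, beside 22.1%), with a median log2 difference of 0.18 that was 0.11 without Zbtb16lu/lu library 2 and 0.29 without WT library 2. The members' 0.42 and this 0.18 are medians of lists chosen by different means and are set side by side only. The largest differences in that list were -1.43 ± 0.92 for Thbs1, which was at 329 in WT library 2 and between 26.8 and 35.1 in the others, 1.22 ± 0.44 for Ifitm6, -1.01 ± 0.67 for Clec4a3, 1.01 ± 0.30 for the calcium-binding S100a6 and 1.00 ± 0.34 for Tlr1. The monocyte factor Irf8 was at 9786 and 9305 in WT library 1 and 2 and at 13887 and 14277 in Zbtb16lu/lu library 1 and 2, a difference of 0.56 ± 0.11 (adjusted p = 0.299). Spi1, which encodes PU.1, had a difference of 0.21 ± 0.13 and Klf4, another monocyte factor, 0.16 ± 0.16. With GC and length offsets these were -0.01 and 0.04, and in the pair of 1 date 0.02 and -0.02. Thbs1 was at 0.35 without WT library 2, and with 1 library left out Ifitm6 was between 0.65 and 1.79, Clec4a3 between -1.43 and -0.59, Tlr1 between 0.47 and 1.54, Spi1 between 0.06 and 0.37 and Klf4 between 0.04 and 0.27.

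Of 15 tested genes among 19 other class II pathway genes, 5 had both Zbtb16lu/lu libraries above both WT libraries (33.3%, beside 21.7% of all genes) and 3 had both below, beside 22.1%, with a median log2 difference of 0.24, or 0.16 without WT library 2 or Zbtb16lu/lu library 1. H2-DMa and H2-DMb1, the pair that exchanges peptides on class II molecules, stood at 1460 and 1829 and at 972 and 917 in WT library 1 and 2, and at 2196 and 2355 and at 1212 and 1331 in Zbtb16lu/lu library 1 and 2. Their genotypes did not overlap, with differences of 0.48 ± 0.14 and 0.43 ± 0.14. The library order of the 5 members was also that of 3 of these 15 genes, H2-DMb1, Rfxap and Nfyb, beside 27.4% of all genes. H2-Ob had a difference of 0.48 ± 0.22, H2-DMb2 of 0.31 ± 0.27 and the costimulator Cd80, at no more than 12.3 in any library, of 1.25 ± 0.85. With 1 library left out these were between 0.31 and 0.66, 0.12 and 0.49, and 0.48 and 2.02, and H2-DMa was between 0.31 and 0.64.

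**Figure D3:**
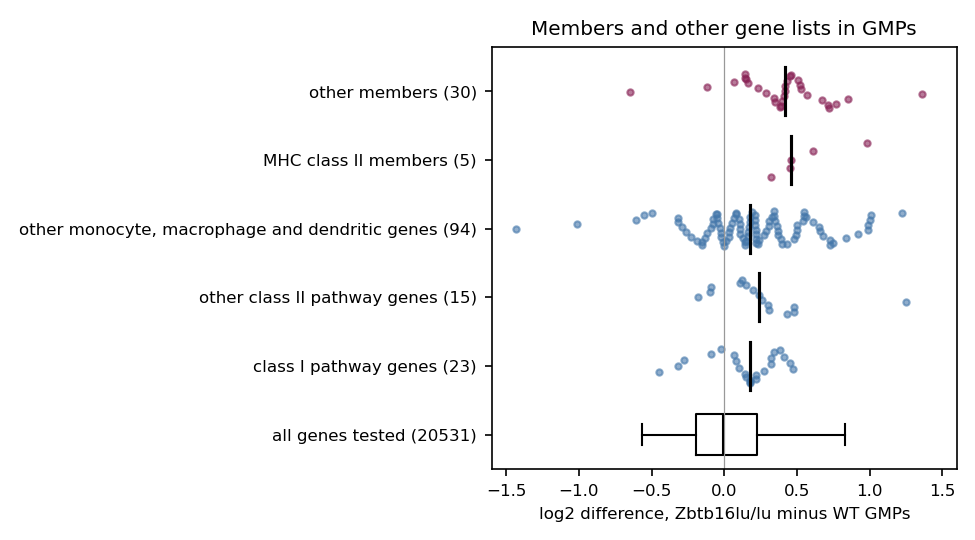
Log2 differences between Zbtb16lu/lu and WT GMPs, with 1 point per gene and a black bar at each list's median; the box holds the middle of all 20531 genes tested and its whiskers reach the percentiles 5 and 95. The medians are 0.41 for the 30 members outside class II, 0.46 for the 5 class II members and 0.18, 0.24 and 0.18 for the lists of genes that are not members.

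PLZF gain in 416b cells could be read for 26 members, with 1 library per condition and thus without a test. Zbtb16 itself went from 382 to 2541 normalized counts, a log2 ratio of 2.73. Intervals are exact 95% binomial (Clopper-Pearson) intervals on reads, with 54529689 reads behind Empty vector and 19995819 behind PLZF-Flag, and cover counting error only, so that they say nothing of the spread between cultures. Among the 22 members with a mean of at least 10, 7 had an interval below 0 (31.8%), beside 15.9% of the 11836 genes at that level, and 2 had one above 0 (9.09%), beside 16.1%. By size, 5 had a log2 ratio of -0.5 or less (22.7%), beside 4.06%, and 2 had one of 0.5 or more (9.09%), beside 2.18%. The median ratio of these 22 members was -0.05, and that of the 26 was -0.18. The members were chosen with earlier results of these data known, so nothing is read from these shares. A further 2 members, Mpeg1 and Aif1, had at most 3 reads in each library and were given no ratio.

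The lower members were led by the lysozymes and Ccr2. Lyz2 went from 553 normalized counts in Empty vector to 335 in PLZF-Flag (913 and 203 reads), a log2 ratio of -0.72 with an interval from -0.95 to -0.50. Lyz1 went from 53.9 to 14.9 (89 and 9 reads), -1.79 with an interval from -3.03 to -0.87. Lyz1 was 8.88% of the reads of both genes in Empty vector and 4.25% in PLZF-Flag. Ccr2 went from 144 to 81, a ratio of -0.82 with an interval from -1.31 to -0.38. Lst1 (983 and 717; -0.45, interval -0.61 to -0.30), Ahnak (953 and 768; -0.31, interval -0.46 to -0.16) and Tlr4 (462 and 382; -0.28, interval -0.50 to -0.06) had smaller ratios. Fcer1g, the most abundant member in 416b cells per kilobase, went from 7813 to 6965, a ratio of -0.17 with an interval from -0.22 to -0.12.

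The 2 members with an interval above 0 lay near it or rested on few reads. Cd14 went from 953 to 1056 normalized counts, a log2 ratio of 0.15 with an interval from 0.01 to 0.28. H2-Aa had 12 reads in each library, 7.26 and 19.8 after scaling, for a ratio of 1.33 with an interval from 0.17 to 2.73. The other class II genes gave intervals that included 0, with Cd74 at -0.71, H2-Eb1 at -1.14, Ciita at -0.89 and H2-Ab1 at 0.74, so that at this depth no common direction was detectable. By contrast, abundant members gave narrow intervals around 0: Psap was at 8612 and 8816 (0.03, interval -0.01 to 0.08), Tyrobp at 1759 and 1775 (0.01, interval -0.09 to 0.11), Fcgr3 at 3108 and 3085 (-0.01, interval -0.09 to 0.07) and F13a1 at 2503 and 2527 (0.01, interval -0.07 to 0.10). Csf1r, at 53.3 and 54.5, had a ratio of 0.03 with an interval from -0.59 to 0.63.

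Set side by side, 19 members had both Zbtb16lu/lu libraries above both WT libraries and a 416b ratio. The interval was below 0 for 6 of them (Lyz1, Lyz2, Ccr2, Fcer1g, Lst1 and Ahnak), above 0 for 1 (Cd14), and included 0 for 12, among them Psap, Tyrobp, F13a1 and Csf1r. Of the 16 with a mean of at least 10 in 416b cells, 37.5% were below 0 and 6.25% above, beside 13.6% and 17.3% of the 2426 genes with the same order in GMPs and that level in 416b cells. Since earlier results of these data were known when the members were chosen, nothing is read from these shares either. Tlr4 had an interval below 0, while its genotypes overlapped in GMPs and the sign of its difference there depended on the libraries used. Of the other monocyte, macrophage and dendritic genes, 62 had a mean of at least 10 in 416b cells, of which 22 had an interval below 0 (35.5%, beside 15.9% of all genes) and 10 above it (16.1%, the share of all genes), with a median ratio of -0.06. By size, 8 of these 62 had a log2 ratio of -0.5 or less, beside 4.06% of all genes, and 1 had one of 0.5 or more, beside 2.18%. Of 11 other class II pathway genes at that level 1 had an interval below 0 (9.09%) and 0 above. Irf8 went from 432 to 461, a ratio of 0.09 with an interval from -0.11 to 0.30.

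**Figure D4:**
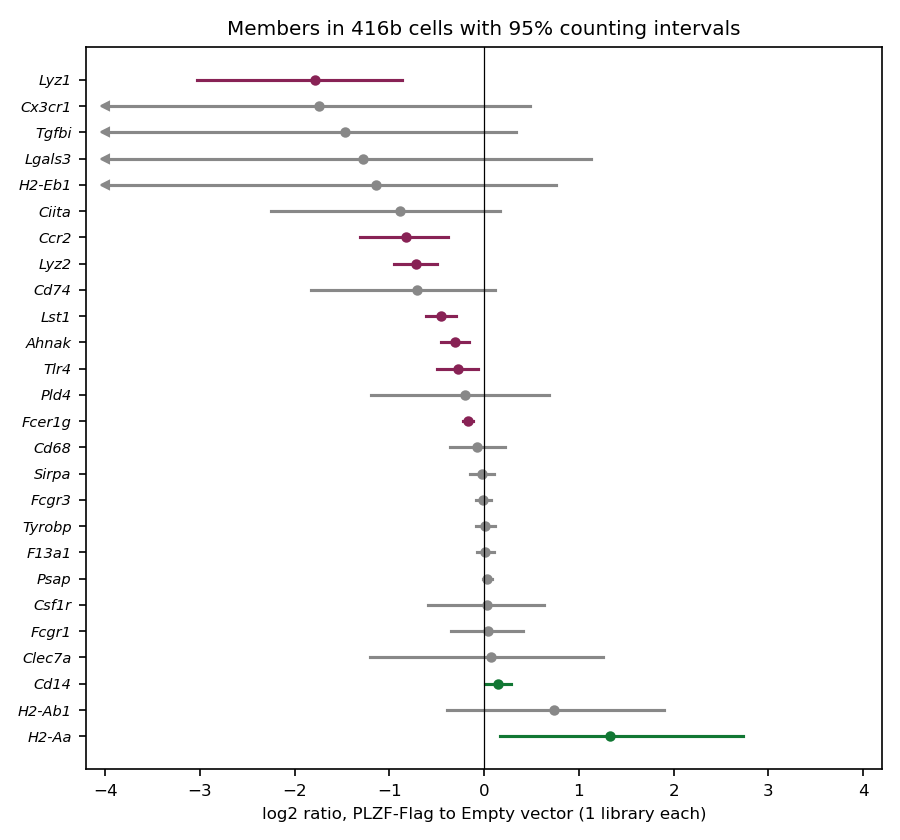
Points are log2 ratios of PLZF-Flag to Empty vector for the 26 members with a ratio, and bars are 95% counting intervals, ended with an arrow where they run past the axis. The 7 members with an interval below 0 are purple and the 2 above 0, Cd14 and H2-Aa, are green.

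The ranks of the members by level also differed between the cell types. Levels of different genes are compared as normalized counts per kilobase of merged exon, and GMPs and 416b cells, made with different library kits, only by percentile within each. GMP percentiles are over the genes tested and 416b percentiles over all genes listed there, so the scales rank different sets of genes. In WT GMPs the members ran from 2.89 normalized counts per kilobase for Ciita (percentile 2.5 of the genes tested) to 12590 for Ly6c2 (percentile 98.9). Tyrobp (8094), Fcgr3 (6019), Psap (5792) and F13a1 (4937) followed Ly6c2. The class II genes ran from Ciita to H2-Ab1, at 224 (percentile 54.7), with H2-Aa at 34.3 (percentile 24.3). In 416b Empty vector cells Fcer1g (percentile 98.9), Psap (95.3), Tyrobp (94.3), Lst1 (93.6) and Fcgr3 (91.0) were near the top. Several receptors and effectors high in GMPs were low there. Csf1r was at percentile 83.6 in WT GMPs and 14.5 in 416b cells, Ccr2 at 82.7 and 19.4, and Mpeg1 at 82.4 and 2.2. The opposite held for Cd14, at 54.8 in GMPs and 72.7 in 416b cells. The 416b cells also had few reads of the GMP granule gene Mpo, at 12.1 normalized counts in Empty vector and 3.3 in PLZF-Flag, and the granule gene Elane is not listed there.

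**Figure D5:**
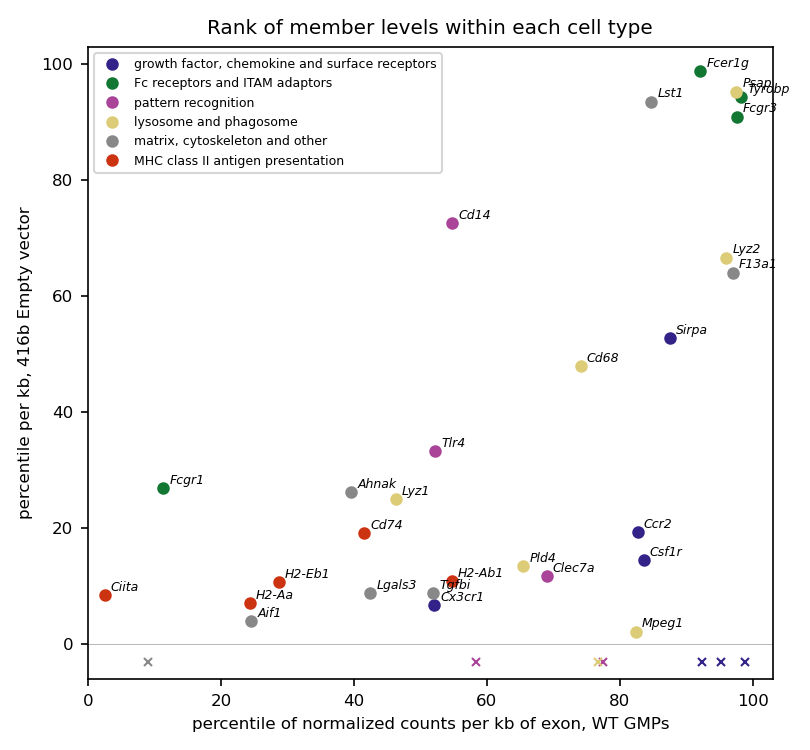
Percentile of normalized counts per kilobase of exon in WT GMPs (x axis, mean of 2 libraries) and in 416b Empty vector cells (y axis), with members coloured by role; crosses under the grey line are the 7 members not listed in the 416b table. Fcer1g, Psap, Tyrobp, Fcgr3 and Lst1 are high in both, and Csf1r, Ccr2 and Mpeg1 are high in GMPs only.

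Several member genes share sequence or exons with another gene, which limits what their counts can tell. On GRCm38, Csf1r, Emb, Fn1, Ciita, F13a1 and Cx3cr1 have exons that overlap a gene on the other strand by 873, 686, 292, 329, 74 and 78 bases. Ms4a6c overlaps BE692007 by 1088 of its 2050 exonic bases. Whether counting used strand is not given in the sources used here, so reads in these stretches could come from either gene.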

How the data were processed

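GMP libraries were made from ribosomal RNA-depleted total RNA (100-nt paired reads), and 416b libraries from SMART-Seq cDNA (61-nt single reads). Alignment to mm10 was done by the authors with subread-align, and reads per gene were obtained with featureCounts (1.5.0 in the submitters' processing notes). Size factors from DESeq2 then scaled the counts, and the deposited signal values are these normalized counts. The deposited tables also hold the authors' log2 values, fold changes and p-values, which were not used.

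In all 4 GMP columns 100.0% of values were whole multiples of the smallest value (tolerance 0.05), but in 1 column of each genotype this value lies so near 1 that reads could not be accepted as recovered, so no count test was run. Instead, log2(value + 1) was fitted with limma 3.58.1 with an intensity trend, over 20531 genes with at least 10 in at least 2 libraries, with p-values adjusted by Benjamini-Hochberg and called under 0.08. In 416b cells 84.8% and 85.5% of values were whole reads. Log2 ratios used a pseudocount of 1, and intervals used reads rounded to whole numbers. Exon lengths came from GENCODE M21. The members and the other lists were chosen with earlier results of these data known. Values per library were planned for the 12 members with the largest differences, the 3 with the smallest, the class II genes, members whose 416b interval excludes 0, the lysozymes, and the main receptors and adaptors; Psap, Ly6c2 and F13a1 were added after their values were seen. The study's procedures state more RNA extractions than the 2 columns per genotype. The chromatin samples (ATAC-seq and ChIP-seq) were not used here.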

Additional observations from a re-analysis of the deposited data

How the results depend on the processing

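No paired analysis was possible because the libraries have no replicate numbers and the dates in their names pair only 1 library of each genotype, while the other 2 have different dates. edgeR and DESeq2 count tests of the GMP libraries were not run, since reads could not be accepted as recovered in all columns. In GMPs the count of 0 genes called, and of 0 members, held without the filter, over genes averaging at least 100, with pseudocounts of 0.1 and 10, equal totals, quantile normalization, no intensity trend, GC and length offsets, and (over all genes) a threshold of 0.05. Leaving out 1 library gave between 1 and 4662 genes called, and between 0 and 21 members. The lone library is then assumed to vary like the other genotype's pair and 1 residual degree of freedom is left. Without WT library 1 and 2 the counts were 4662 and 2749 genes (15 and 21 members), and without Zbtb16lu/lu library 1 and 2 they were 64 and 1 (0 members each); the median absolute log2 difference between libraries was 0.284 for the WT pair and 0.152 for the Zbtb16lu/lu pair. The members' median stayed between 0.28 and 0.51 over these settings. The class II median, summarised after seeing the data, was between -0.05 and 1.12 with 1 library left out, -0.65 in the pair sharing a date and 1.82 in the other pair, a comparison added after seeing the data. The cause of these shifts was not tested. With 1 library left out, the class I list's median was between 0.09 and 0.28, that of the other monocyte, macrophage and dendritic genes between 0.11 and 0.29, and that of the other class II pathway genes between 0.16 and 0.31. In 416b cells, TMM scaling (edgeR 4.0.16), total counts and other pseudocounts left 7 intervals below 0 and 2 above, and a mean of at least 100 left 6 of 14 and 1. Single members' values moved by over the spread between replicates in 35 of 487 recomputed values, and 8 members changed sign in at least 1: Fcgr1, Tlr2, Tlr4, Emb, Cd74, H2-Aa, H2-Eb1 and Ciita. GC and length offsets took Cd68 to 0.10, Sirpa to 0.03, Tgfbi to 0.15, Tlr4 to 0.05 and Emb to 0.14.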

Other observations

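Class I presentation, which displays peptides from a cell's own proteins, was read from 23 genes that are not members, and none passed the test. This list was also chosen with earlier results of these data known, so nothing is read from its shares. The peptide transporter genes Tap1 and Tap2 and the loading factor Tapbp were at 4706 and 5379, 3935 and 3900, and 3901 and 4053 normalized counts in WT library 1 and 2, and at 6453 and 6676, 5412 and 5284, and 5405 and 5579 in Zbtb16lu/lu library 1 and 2. None of these 3 overlapped between genotypes, and their log2 differences were 0.38 ± 0.12, 0.45 ± 0.11 and 0.47 ± 0.11, or 0.24, 0.28 and 0.29 with GC and length offsets. The other genes with large differences were Pdia3, a disulphide isomerase of the endoplasmic reticulum, at -0.45 ± 0.13, and H2-Q4, at 0.41 ± 0.20, whose reads may be shared with related H2-Q genes. With 1 library left out H2-Q4 was between 0.09 and 0.73, and it was 0.76 in the libraries that share a date and 0.06 in the other pair. In the list as a whole, 10 genes had both Zbtb16lu/lu libraries above both WT libraries (43.5%, beside 21.7% of all genes) and 3 had both below, beside 22.1%, with a median of 0.18 that was 0.09 without WT library 1 and 0.28 without WT library 2. In 416b cells 13 of the 23 had an interval below 0 (56.5%, beside 15.9% of all genes) and 2 above (8.70%, beside 16.1%), with small ratios for Tap1, Tap2 and Tapbp (-0.16, -0.17 and -0.22) and a median of -0.09. More reads give a narrower interval, and some of these genes had very many, such as B2m with 55885 in Empty vector. By size, 1 of the 23 had a log2 ratio of -0.5 or less, beside 4.06% of all genes, and 0 had one of 0.5 or more, beside 2.18%.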
